A study of Mus musculus with 12 samples.

Results

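The genes described here are 36 mouse genes of the lysosome and of its transcriptional control by the MiT/TFE factors, followed in NIH 3T3 cells, an immortalized mouse fibroblast line, after depletion of Lap2. They were chosen as a named list because 1 of them, Gpnmb, was much higher with Lap2 siRNA in both serum conditions. Each of the 36 symbols matched exactly 1 Ensembl gene of the 49671 in the count files, and 35 of them, like 18668 genes in all, passed the filter of more than 1 read in 3 or more of the 12 libraries and were tested. Atp6v0d2 did not pass it.

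RNA-seq was made from 4 groups of 3 libraries each. Cells carried control siRNA or an siRNA against the nuclear lamina protein Lap2, the product of Tmpo, and were either kept in 0.3% FBS or given 15% FBS for 45 min after starvation. They are called starved control, stimulated control, starved Lap2-depleted and stimulated Lap2-depleted cells below. Lap2 was targeted by a single siRNA sequence that hits all its isoforms, in a single cell line, and the control was 1 non-targeting siRNA. The labels call the 3 libraries of a group replicates without saying that they came from separate cultures, so every p-value measures only the spread between these libraries, which may be technical.

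Lysosomes degrade proteins, lipids and glycans with acid hydrolases, at a low pH that the vacuolar proton pump maintains. TFEB, TFE3 and MITF are basic helix-loop-helix leucine zipper factors of 1 family. When mTORC1 is active at the lysosomal surface, as in fed cells, they are phosphorylated and held in the cytoplasm. When nutrients or growth factors are withdrawn they enter the nucleus and bind E-box sequences in the promoters of many lysosomal and autophagy genes. Most of this control acts on where the factors are in the cell, which mRNA counts do not measure.

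The E-boxes near the start sites are shown first, because they are the sequence feature by which these genes are usually grouped. RefSeq start-site windows of 300 bases on GRCm38.p6, from 250 bases before the start to 50 after it, were given for 32 members in 40 windows, and none was given for Asah1, Atp6v0d2, Atp6v1h and Ctsb. The palindrome CACGTG, read on both strands at once, was in the windows of 11 of the 32 members (34.4%), against 8.09% of 27025 genes with a window and 11.0% of the 11805 tested genes. The longer palindrome TCACGTGA, which contains it, was in 7 members (21.9%), against 1.12% of all genes and 2.01% of tested genes. The same palindrome with a G before it and a C after it, 10 letters in all, was in 1 member, Cln3, against 0.37% of all genes. CATGTG on either strand was in 9 members (28.1%), against 15.9% of all genes and 10.9% of tested genes. Counted over windows, CACGTG was in 27.5% of the members' windows and 7.15% of all windows. The members were listed by name for this pathway, so these shares describe the list and test nothing. No window of Gpnmb, Tfeb, Tfe3 or Mitf held any of these letter strings, which says only that the letters are not in these windows. The matches of TCACGTGA, each with its flanking bases, and the CACGTG of Ctsl were as follows, written 5′ to 3′ on the strand of the gene with the matched letters in capitals.
Gla site A: agcgattgaTCACGTGAgcatctacg
Gla site B: agatctcggTCACGTGAgcaactctc
Ctsd: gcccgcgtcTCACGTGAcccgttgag
Ctsa site A: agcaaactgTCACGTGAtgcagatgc
Ctsa site B: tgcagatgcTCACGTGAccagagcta
Mcoln1: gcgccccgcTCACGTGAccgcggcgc
Atp6v1a: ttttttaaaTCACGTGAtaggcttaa
Atp6v0d1: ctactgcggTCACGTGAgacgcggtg
Cln3: acgggtactGTCACGTGACccccaacct
Ctsl: gttagaagcCACGTGctgatctaa

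The stretches of Gla lay at chrX:134601217-134601242 and chrX:134601184-134601209 on the minus strand, with the first C of the core at positions -227 and -194 from the start. Those of Ctsa, at chr2:164833751-164833776 and chr2:164833768-164833793 on the plus strand, lay on either side of the start site. The other plus-strand stretch was that of Mcoln1 at chr8:3500464-3500489. On the minus strand lay Ctsd at chr7:142387910-142387935, Atp6v1a at chr16:44139375-44139400, Atp6v0d1 at chr8:105566052-105566077, Cln3 at chr7:126583341-126583368 and Ctsl at chr13:64370742-64370765. Lamp1 held 4 copies of CACGTG between positions -61 and -15 and no TCACGTGA. These are matches of letters, and no binding was measured here.

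Total counts were 18026298 to 26265253 per library. Tmpo, the target of the siRNA, had 982, 1176 and 1093 normalized counts (reads scaled to a common library size) in starved Lap2-depleted cells and 2775, 2805 and 2885 in starved control cells, and was at 767, 745 and 607 against 3264, 3243 and 3019 after serum. All 10 fibroblast markers were detected, at a summed 41139 to 42521 CPM in starved control cells and 42704 to 46991 in stimulated control cells, and at 25359 to 30532 and 30666 to 34249 in the Lap2-depleted groups. Of the 10, 2 were past edgeR's threshold higher and 7 lower with Lap2 siRNA in 0.3% FBS, where 17.8% and 18.6% of all tested genes were. In 15% FBS these were 0 and 8, against 11.4% and 12.1% of tested genes. The cells were 1 line, and bulk RNA cannot tell a change in every cell from a change in some of them. Members took 0.779% to 0.782% of the counts in starved control cells, 0.880% to 0.892% in starved Lap2-depleted cells, 0.696% to 0.763% in stimulated control cells and 0.767% to 0.803% in stimulated Lap2-depleted cells.

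Levels per gene length spanned a wide range. In starved control cells Psap, the precursor of the saposins that help hydrolases act on sphingolipids, had the highest level in CPM per kb of exons (492.6 ± 10.4 SD, n = 3), above 99.3% of tested genes. The membrane glycoprotein Lamp1 (210.0 ± 3.6) and the tetraspanin Cd63 (205 ± 2.0) followed, and their libraries overlapped. Next in level were Ctsd (160 ± 2.2), an aspartic protease, and the autophagy cargo receptor Sqstm1 (122 ± 2.1), which were each separate from their neighbours in that order. At the low end stood Tfeb (2.70 ± 0.12), Mitf (1.93 ± 0.36), Cd68 (1.72 ± 0.26) and Cln3 (1.17 ± 0.089), and Mitf and Cd68 overlapped. Gpnmb ranked 34 of 36 with 0.171 ± 0.072, above 23.5% of tested genes. Ctss, a protease of antigen-presenting cells, had 0 to 4 counts per library, and no fold is given for it. Atp6v0d2, a proton pump subunit of osteoclasts and macrophages, had 0 counts in all 12 libraries, which allows up to 0.114 to 0.166 CPM by counting error alone.

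**Figure D1:**
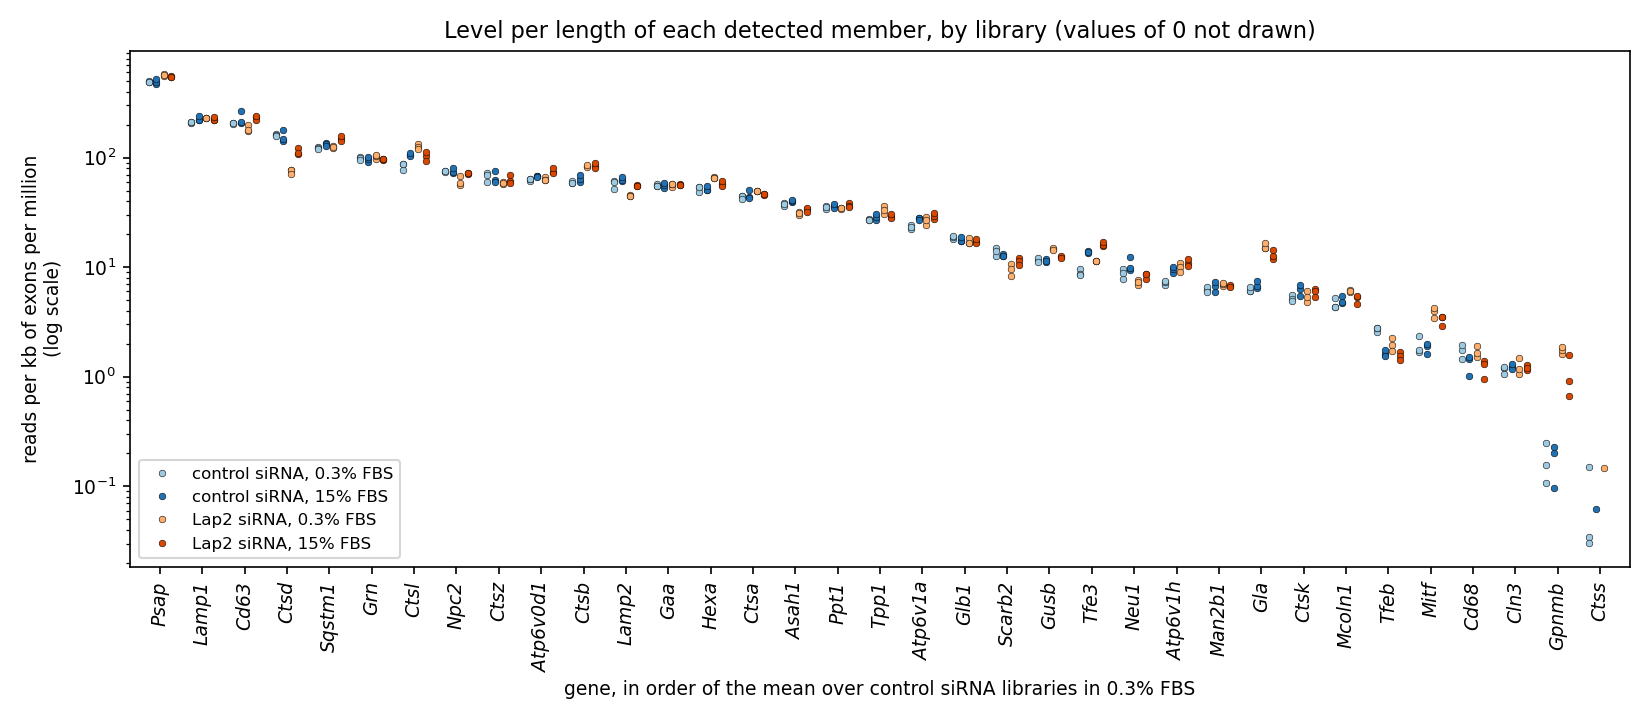
Level in CPM per kb of exons (log axis) of the 35 detected members, ordered by their mean in control siRNA cells in 0.3% FBS; each point is 1 library and colours give the 4 groups. Psap stood highest in every group, and Gpnmb, at a mean of 0.171 in starved control cells, was at 1.75 in starved Lap2-depleted cells, where Cd68 was at 1.69.

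The first question was how the genes differed between Lap2-depleted and control cells in each serum condition. The list was chosen on this contrast, so the values are a description without p-values. In 0.3% FBS, 14 of the 35 tested members were past edgeR's threshold (adjusted p below 0.05) in the higher direction and 7 in the lower, where 17.8% and 18.6% of all tested genes were. In 15% FBS, 7 were past it in the higher direction and 4 in the lower, against 11.4% and 12.1% of tested genes. Scaling to total counts made these 17 and 6 in 0.3% FBS and 11 and 2 in 15% FBS, with a median log2 fold change of all tested genes of 0.12 and 0.10. Of all 18668 tested genes, that scaling had 4689 higher and 2638 lower in 0.3% FBS, and 3471 and 1678 in 15% FBS. In 15% FBS, 4 members were higher without stimulated control replicate 2 or stimulated Lap2-depleted replicate 3, where 1594 and 1550 of all tested genes were. There were 2 lower without stimulated control replicate 3 or stimulated Lap2-depleted replicate 2, where 2094 and 1897 of all tested genes were. The main fit had 2124 of all tested genes higher and 2250 lower. The median log2 fold change (log2FC) of the members was 0.07 in 0.3% FBS and 0.01 in 15% FBS, and that of all tested genes 0.01 and 0.02. Tfe3, Mitf, Ctsb, Gla, Gpnmb and Atp6v1h were past the threshold in the higher direction in both conditions, which is 6 of 14 and 6 of 7. Ctsd, Neu1, Asah1 and Lamp2 were past it in the lower direction in both, which is 4 of 7 and 4 of 4. None was past it in opposite directions (0 genes). Such calls were rare among all tested genes, with 104 (0.557%) higher in 0.3% and lower in 15% FBS, and 70 (0.375%) the reverse. Of all tested genes, 1331 were higher in both, out of 3330 and 2124, and 1636 lower in both, out of 3480 and 2250, so calls shared between the conditions were common among all genes.

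Gpnmb encodes a glycosylated membrane protein of melanosomes and late endosomes and is a known target of the MiT family. The gene (ENSMUSG00000029816) lies on the plus strand at chr6:49036546-49070929 of GRCm38. It had 34.4, 14.7 and 21.6 normalized counts in starved control cells, 221, 242 and 258 in starved Lap2-depleted cells, 13.3, 27.7 and 31.2 in stimulated control cells and 126, 92.2 and 216 in stimulated Lap2-depleted cells. Every Lap2-depleted library was above every control library in both conditions, and the spread was widest in stimulated Lap2-depleted cells. The log2FC was 3.36 ± 0.27 (SE) in 0.3% FBS, a fold change of 10.3, and 2.62 ± 0.28 in 15% FBS, a fold change of 6.16. 

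Gpnmb is best known from macrophages, osteoclasts and melanocytes, so markers of these cells, fixed as lists, were read beside it. The 10 macrophage markers summed to 1.69 to 2.70 CPM in starved control cells, 5.18 to 5.97 in starved Lap2-depleted cells, 3.61 to 4.21 in stimulated control cells and 6.52 to 6.92 in stimulated Lap2-depleted cells. Itgam and Tyrobp were at 0 counts in all libraries, Adgre1 at 0 to 1 and Ptprc at 0 to 10, and most of the sum was Cd14, with 22 to 39 counts in starved control and 81 to 90 in starved Lap2-depleted libraries. Csf1r had 6 to 13 and 18 to 31 counts in the same 2 groups. The part of these genes in the level of Gpnmb was not tested. Of 7 osteoclast markers Calcr was at 0 and Itgb3 had 512 to 666 counts in starved control cells and 145 to 213 in starved Lap2-depleted cells, whereas Nfatc1 had 300 to 402 and 496 to 534. The osteoclast list summed to 43.3 to 46.4 and 30.3 to 37.3 CPM in these groups, and to 58.5 to 61.8 and 31.8 to 51.3 in stimulated control and stimulated Lap2-depleted cells. Of 7 melanocyte markers Tyrp1, Dct, Mlana and Slc45a2 were at 0 in every library, and the list summed to 0.479 to 1.41 CPM over all 12.

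**Figure D2:**
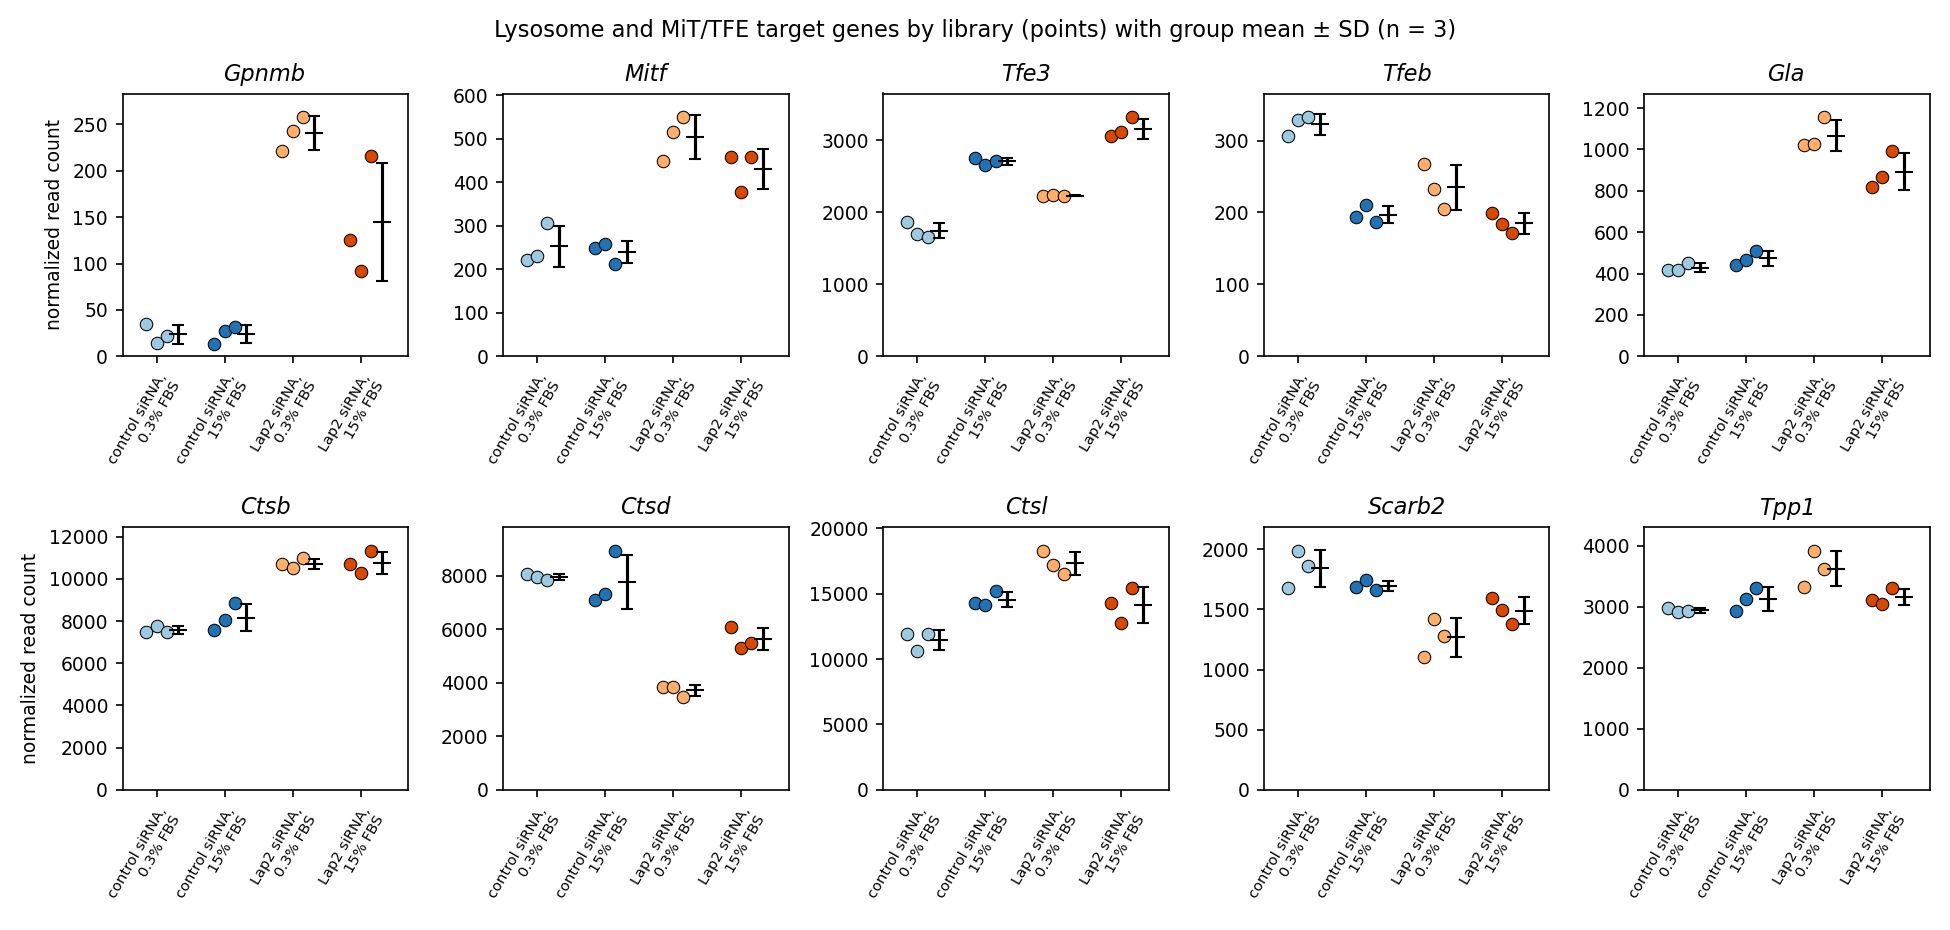
Normalized read counts (linear axes from 0) of 10 members in the 12 libraries; points are libraries, black dashes and bars are group means ± SD with n = 3. Gpnmb, Mitf, Gla and Ctsb lie higher in both Lap2 siRNA groups than in the control groups, Ctsd lies lower, and Ctsl and Tfeb differ between siRNAs without overlap in 0.3% FBS only.

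Among the transcription factors, Mitf, the factor of melanocytes and osteoclasts that fibroblasts also transcribe, had 221, 229.6 and 307 normalized counts in starved control cells, 449.9, 515 and 549 in starved Lap2-depleted cells, 248, 259 and 212 in stimulated control cells and 457, 378 and 458 in stimulated Lap2-depleted cells. All Lap2-depleted libraries were above all control libraries. Its log2FC was 1.00 ± 0.12 in 0.3% FBS and 0.84 ± 0.12 in 15% FBS. Tfe3, the most abundant of the 3 factors per length, had 1859, 1704 and 1661 normalized counts in starved control cells, 2224, 2234 and 2230.0 in starved Lap2-depleted cells, 2753, 2656 and 2708 in stimulated control cells and 3052, 3111 and 3317 in stimulated Lap2-depleted cells. The groups did not overlap in either condition, and the log2FC was 0.36 ± 0.064 and 0.22 ± 0.063. Tfeb went the other way in starved cells, with 306, 329 and 332 normalized counts in starved control cells, 267, 233 and 205 in starved Lap2-depleted cells, 194, 209.7 and 186 in stimulated control cells and 199.8, 183 and 171 in stimulated Lap2-depleted cells. Its libraries were lower with Lap2 siRNA in 0.3% FBS (log2FC -0.45 ± 0.11) and overlapped in 15% FBS (-0.09 ± 0.12).

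The proteases differed among themselves. Ctsb, a cysteine protease, had 7488, 7787 and 7481 normalized counts in starved control cells, 10696, 10502 and 10984 in starved Lap2-depleted cells, 7589.5, 8059 and 8869 in stimulated control cells and 10708, 10280.3 and 11332 in stimulated Lap2-depleted cells. Both Lap2-depleted groups lay above both control groups, and the log2FC was 0.50 ± 0.063 and 0.40 ± 0.063. Ctsd, the main aspartic protease of the lysosome (ENSMUSG00000007891, chr7:142375911-142388038, minus strand), had 8064, 7945 and 7847 normalized counts in starved control cells, 3856, 3827 and 3482 in starved Lap2-depleted cells, 7074, 7322 and 8922 in stimulated control cells and 6093, 5296 and 5478 in stimulated Lap2-depleted cells. It was lower with Lap2 siRNA in every library, with a log2FC of -1.10 ± 0.074 in 0.3% FBS, a fold change of 0.468, and -0.47 ± 0.073 in 15% FBS. Ctsl, a cysteine protease that fibroblasts also secrete, had 11893, 10601 and 11921 normalized counts in starved control cells, 18272, 17212 and 16506 in starved Lap2-depleted cells, 14323, 14152 and 15189 in stimulated control cells and 14249.6, 12732 and 15431 in stimulated Lap2-depleted cells. Lap2-depleted libraries were higher only in 0.3% FBS (log2FC 0.60 ± 0.068) and overlapped the controls in 15% FBS (-0.04 ± 0.068). Tpp1, a peptidase that trims N-terminal tripeptides, had 2978, 2908 and 2934 normalized counts in starved control cells, 3333, 3917 and 3626 in starved Lap2-depleted cells, 2933, 3132 and 3314 in stimulated control cells and 3118, 3049.6 and 3304 in stimulated Lap2-depleted cells. It was likewise higher in starved cells (0.30 ± 0.066) with overlapping libraries after serum (0.01 ± 0.066). Ctsa, the protective protein of Neu1 and Glb1, was at 0.17 ± 0.064 in 0.3% FBS and 0.01 ± 0.064 in 15% FBS. Ctsz (-0.19 and -0.07) and Ctsk, a collagen-degrading protease (0.06 and -0.06), overlapped between siRNAs in both conditions.

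The glycosidases were led by Gla, the alpha-galactosidase A lost in Fabry disease, whose promoter window held 2 of the printed TCACGTGA sites. The gene (ENSMUSG00000031266) lies on the minus strand at chrX:134588149-134601125. It had 418, 416 and 453 normalized counts in starved control cells, 1021, 1025 and 1155 in starved Lap2-depleted cells, 441, 467 and 511 in stimulated control cells and 818, 866 and 991 in stimulated Lap2-depleted cells. Each Lap2-depleted library was above each control library, with a log2FC of 1.32 ± 0.087 in 0.3% FBS, a fold change of 2.49, and 0.92 ± 0.088 in 15% FBS. Neu1, a sialidase, was lower, with 761, 619.5 and 698 normalized counts in starved control cells, 599.6, 541 and 582 in starved Lap2-depleted cells, 745, 772 and 970.2 in stimulated control cells and 677, 619 and 684 in stimulated Lap2-depleted cells. Its log2FC was -0.27 ± 0.095 and -0.33 ± 0.093, and the groups did not overlap in either condition. Hexa, the alpha subunit of hexosaminidase, had 2265, 2036 and 2267 normalized counts in starved control cells, 2814, 2717 and 2760.5 in starved Lap2-depleted cells, 2123, 2136 and 2334 in stimulated control cells and 2405, 2334 and 2548 in stimulated Lap2-depleted cells. Gusb, the beta-glucuronidase, had 1105, 1156 and 1075 normalized counts in starved control cells, 1408, 1437 and 1377 in starved Lap2-depleted cells, 1061, 1145 and 1089.5 in stimulated control cells and 1186, 1204 and 1166 in stimulated Lap2-depleted cells. Both were higher in starved Lap2-depleted cells, by 0.34 ± 0.065 and 0.34 ± 0.067, and less apart after serum (0.15 ± 0.066 and 0.11 ± 0.068), where Hexa overlapped and Gusb did not. Glb1, the beta-galactosidase (-0.12 and -0.05), Gaa, the acid alpha-glucosidase (0.01 and 0.03), and Man2b1, the acid alpha-mannosidase (0.16 and 0.02), were not past the threshold in either condition.

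Of the proteins that handle lipids, Asah1, the acid ceramidase, was lower by nearly the same amount in both conditions. It had 2561, 2747 and 2703 normalized counts in starved control cells, 2148, 2265 and 2227 in starved Lap2-depleted cells, 2820.0, 2870.4 and 2939.6 in stimulated control cells and 2404, 2473 and 2295 in stimulated Lap2-depleted cells. The groups were apart in both, with a log2FC of -0.27 ± 0.062 and -0.27 ± 0.062. Npc2, which carries cholesterol out of the lysosome, had 8709, 8468 and 8579 normalized counts in starved control cells, 7740.1, 6385 and 6704 in starved Lap2-depleted cells, 8268, 8512 and 9151 in stimulated control cells and 8125, 8207 and 8216 in stimulated Lap2-depleted cells. Lap2-depleted libraries were all lower, with a log2FC of -0.31 ± 0.065 in 0.3% FBS and -0.08 ± 0.065 in 15% FBS. Psap, the most abundant member, had 29191, 28043 and 28301 normalized counts in starved control cells, 32442, 33375 and 33049 in starved Lap2-depleted cells, 27254, 28147 and 30253 in stimulated control cells and 32038, 31346 and 31376 in stimulated Lap2-depleted cells. Here the Lap2-depleted libraries were all higher, by 0.21 ± 0.057 and 0.15 ± 0.057. Ppt1, which removes palmitate from proteins, overlapped in both conditions (-0.05 and 0.02).

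Among the remaining membrane proteins, Scarb2, the receptor that carries glucocerebrosidase to lysosomes, had 1677, 1987 and 1862 normalized counts in starved control cells, 1103, 1423 and 1277 in starved Lap2-depleted cells, 1683, 1744 and 1662 in stimulated control cells and 1598, 1494 and 1381 in stimulated Lap2-depleted cells. It was lower in every Lap2-depleted library, more so in 0.3% FBS (-0.54 ± 0.08) than in 15% FBS (-0.19 ± 0.08). Lamp2, a glycoprotein needed for chaperone-mediated autophagy, had 10484, 12325 and 12098 normalized counts in starved control cells, 9194, 9029.6 and 9057 in starved Lap2-depleted cells, 12285, 12477 and 13329.9 in stimulated control cells and 11425, 11142 and 11190.1 in stimulated Lap2-depleted cells. It was lower in both conditions without overlap (-0.36 ± 0.063 and -0.17 ± 0.062), whereas Lamp1 was at 0.14 ± 0.058 and -0.01 ± 0.058. Mcoln1, the calcium channel TRPML1 that releases lysosomal calcium, had 836, 693 and 688 normalized counts in starved control cells, 946, 994 and 956 in starved Lap2-depleted cells, 749, 769.5 and 866 in stimulated control cells and 740.4, 854 and 862 in stimulated Lap2-depleted cells. It was higher in starved Lap2-depleted cells (0.39 ± 0.085) and overlapped after serum (0.05 ± 0.086). Cd63 was at -0.15 ± 0.071 and 0.02 ± 0.071. Cd68, a marker of macrophage lysosomes, had 25.4 to 51.8 normalized counts in all 12 libraries and overlapped between siRNAs in both conditions, as did Cln3, a membrane protein lost in Batten disease, with 128 to 179.

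Of the proton pump subunits, Atp6v1h, a regulatory subunit of the cytosolic V1 sector, had 1412, 1491 and 1531 normalized counts in starved control cells, 2240.3, 2065 and 1845 in starved Lap2-depleted cells, 1834, 1972 and 2043 in stimulated control cells and 2243, 2126 and 2421 in stimulated Lap2-depleted cells. Lap2-depleted libraries were higher in both conditions, by 0.47 ± 0.073 and 0.22 ± 0.072. Atp6v1a, the catalytic V1 subunit, had 2841, 3102 and 2967 normalized counts in starved control cells, 3102, 3659.7 and 3448 in starved Lap2-depleted cells, 3562, 3592 and 3450.4 in stimulated control cells and 3540.4, 3764 and 3937 in stimulated Lap2-depleted cells. It was higher in starved Lap2-depleted cells by 0.20 ± 0.066 and overlapped after serum (0.08 ± 0.066). Atp6v0d1, which joins the V0 sector to the stalk, was at 0.02 ± 0.063 in 0.3% FBS and 0.16 ± 0.063 in 15% FBS. Sqstm1 was at 0.03 ± 0.058 and 0.16 ± 0.058, the latter past the threshold, and Grn, the progranulin precursor that is cut in lysosomes, at 0.07 ± 0.061 and -0.01 ± 0.061. Of the 7 members with TCACGTGA in a promoter window, Gla had the highest and Ctsd the lowest log2FC in both conditions.

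**Figure D3:**
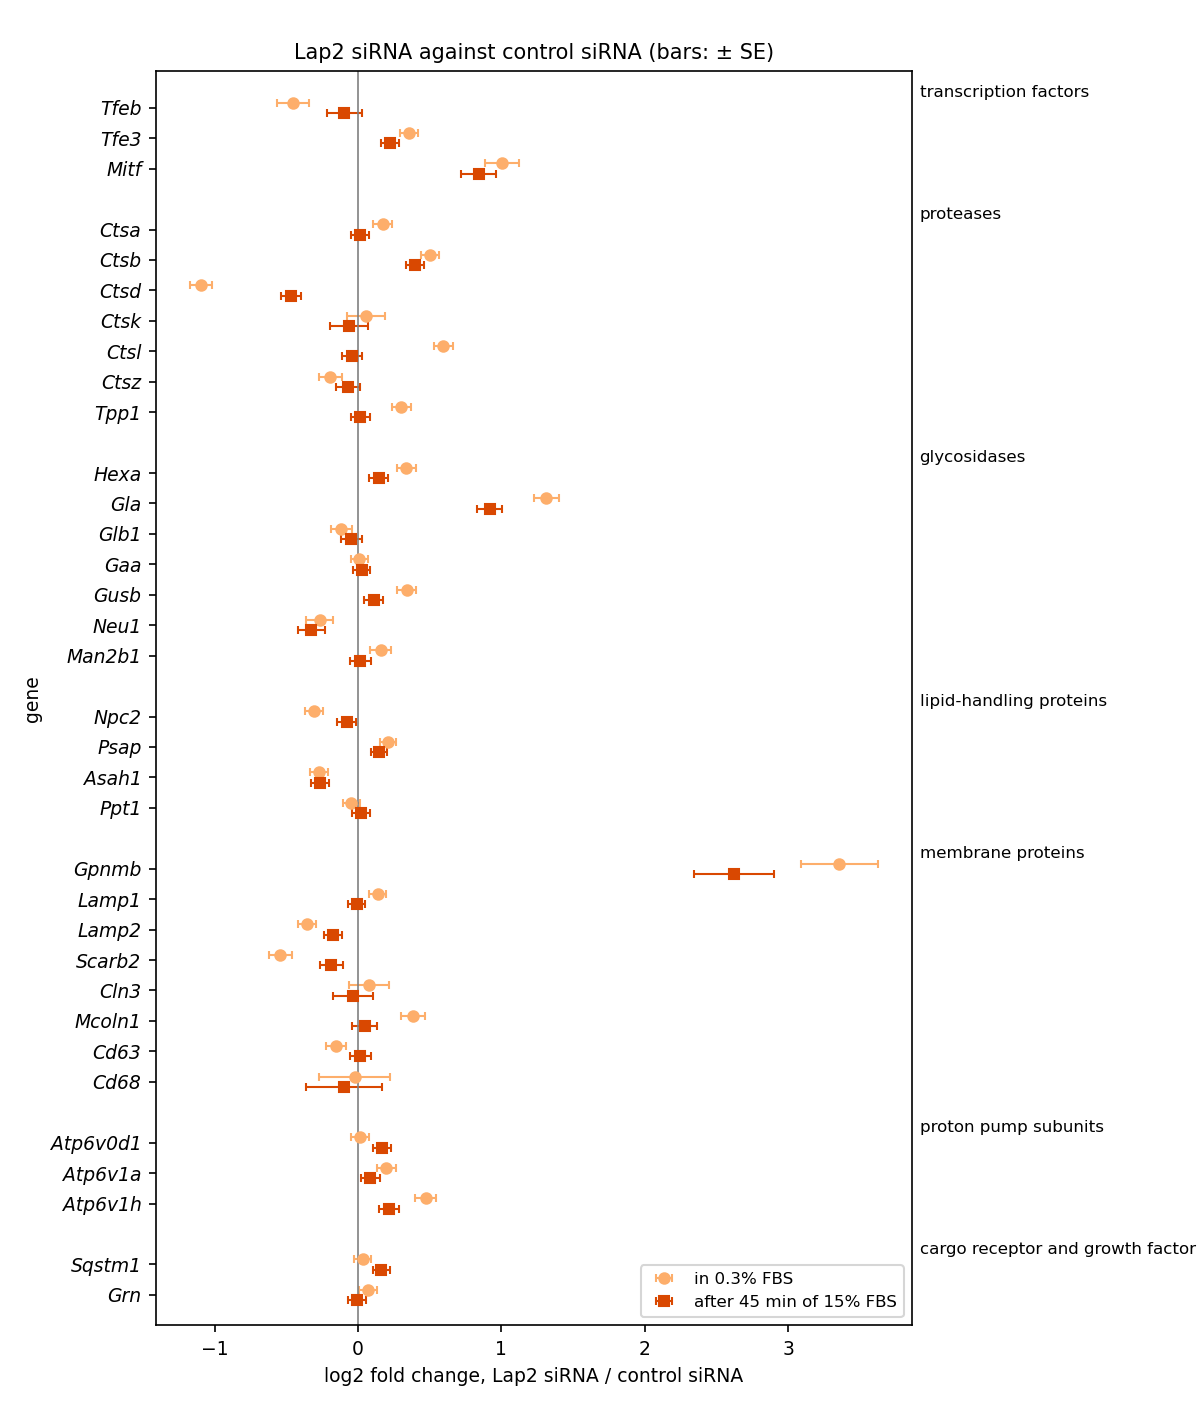
Log2 fold change of Lap2 siRNA over control siRNA (x axis) for 34 members grouped by role (y axis), in 0.3% FBS (circles) and 15% FBS (squares), with bars of ± SE; Ctss, with 0 to 4 counts, is not drawn. Gpnmb stands far to the right at 3.36 and 2.62, Gla and Mitf follow, and Ctsd lies furthest to the left at -1.10 in 0.3% FBS.

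The second question was whether these genes responded to serum. The stated reason for the list does not name this contrast, but the list was made with earlier results of these data known, so the tests are not independent of the data in that sense. In control cells 5 members rose and 1 fell after 45 min of 15% FBS, out of 35, against 15.6% and 13.9% of all tested genes. With scaling to total counts 2 rose and 12 fell, and with upper-quartile normalization 3 and 2. The median of all tested genes was then -0.21 and -0.10, so directions are relative to the bulk of genes. Of the 18668 tested genes, 1632 rose and 5847 fell with the first scaling, and 2183 and 3878 with the second. Without starved Lap2-depleted replicate 1, which enters this comparison through the shared spread and scaling, 9 rose. In that fit 3477 of the 18668 tested genes rose, against 2915 in the main fit. The median log2FC of the members was 0.08, that of all tested genes -0.01. The clearest responses were in the factors themselves. Tfe3 rose, with a log2FC of 0.64 ± 0.064 (adjusted p = 6.06e-10), a fold change of 1.55, and Tfeb fell, with a log2FC of -0.71 ± 0.11 (adjusted p = 6.58e-06), a fold change of 0.611. Neither gene's libraries overlapped between the serum conditions, and Mitf did not pass the test (-0.07 ± 0.12, adjusted p = 0.771). Both calls held in every alternative tried, as did that of Atp6v1h, which rose by 0.40 ± 0.073 (adjusted p = 4.79e-05).

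Ctsl rose in control cells by 0.34 ± 0.068 (adjusted p = 0.000128), and Atp6v1a by 0.25 ± 0.066 (adjusted p = 0.0032). The call of Ctsl was lost with scaling to total counts (log2FC 0.14, adjusted p = 0.111) and that of Atp6v1a with that scaling (0.04, adjusted p = 0.659) and with upper-quartile normalization (0.16, adjusted p = 0.0641). Neu1 rose by 0.26 ± 0.093 (adjusted p = 0.0328), although its libraries overlapped. Its call was lost with scaling to total counts (0.05, adjusted p = 0.720), with upper-quartile normalization (0.16, adjusted p = 0.200) and without starved control replicate 2 or 3 or stimulated control replicate 3 (0.13 to 0.28, adjusted p = 0.0563 to 0.351). The other 29 tested members did not pass, and among these the 95% interval for Psap was -0.11 to 0.11, for Ctsd -0.18 to 0.11 and for Gpnmb, with its low counts, -0.70 to 0.73.

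In Lap2-depleted cells 8 members rose with serum and 8 fell, out of 35, against 18.3% and 14.9% of all tested genes. Scaling to total counts gave 2 and 18, and upper-quartile normalization 4 and 12, with a median of all tested genes of -0.23 and -0.11. Of the 18668 tested genes, 1658 rose and 5949 fell with the first scaling, and 2383 and 3942 with the second. Without stimulated Lap2-depleted replicate 1 there were 4 that fell, and without its replicate 2 there were 3. Of all tested genes 2276 and 2290 fell in these fits, against 2777 in the main fit. Tfe3 rose, with a log2FC of 0.50 ± 0.063 (adjusted p = 7.31e-08) and Ctsd by 0.59 ± 0.074 (adjusted p = 6.11e-08), a fold change of 1.51. Ctsl fell, with a log2FC of -0.29 ± 0.068 (adjusted p = 0.000769), and so did Gusb (-0.25 ± 0.067, adjusted p = 0.00385). These 4 calls held in every alternative. The Lap2-depleted libraries given above for these genes were all apart between the serum conditions.

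Members that rose in Lap2-depleted cells included several membrane proteins. Cd63 rose from 15425, 13681 and 13870.5 to 18215, 17104 and 18541 normalized counts, without overlap (0.33 ± 0.071, adjusted p = 0.000428). Lamp2 rose by 0.31 ± 0.063 (adjusted p = 0.000189), Npc2 by 0.24 ± 0.065 (adjusted p = 0.00449) and Scarb2 by 0.23 ± 0.081 (adjusted p = 0.0241). The libraries of Scarb2 overlapped between the serum conditions, and those of Lamp2 and Npc2 did not. Sqstm1 went from 8655, 8983 and 8908 to 10388, 10058 and 11047 and Atp6v0d1 from 2507, 2336 and 2371 to 2777, 2718 and 3046. Both rose without overlap, by 0.25 ± 0.058 (adjusted p = 0.00102) and 0.24 ± 0.063 (adjusted p = 0.00251). With scaling to total counts none of these 6 calls was kept, and the log2FC lay between 0.003 for Scarb2 and 0.10 for Cd63. Upper-quartile normalization also lost Npc2, Scarb2, Atp6v0d1 and Sqstm1 (0.12 to 0.14). Npc2 was further lost without starved Lap2-depleted replicate 2 (log2FC 0.17, adjusted p = 0.0779), and Scarb2 without starved Lap2-depleted replicate 1 or 3 or stimulated Lap2-depleted replicate 1 or 2 (0.13 to 0.23, adjusted p = 0.0624 to 0.202) and in a fit of the 2 groups alone (0.23, adjusted p = 0.0548).

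Members that fell in Lap2-depleted cells included Gpnmb itself, with a log2FC of -0.72 ± 0.21. It is 1 of the 8 counted as falling, but no p is given because the list was chosen on its values in these groups. The call rested on 1 library, since it was lost without stimulated Lap2-depleted replicate 2, the lowest of its group (log2FC -0.48). It was also lost with DESeq2 (-0.75). Tfeb fell, with -0.35 ± 0.12 (adjusted p = 0.0211), Gla with -0.26 ± 0.083 (adjusted p = 0.0156) and Mcoln1 with -0.24 ± 0.085 (adjusted p = 0.0295). Tpp1 (-0.20 ± 0.066, adjusted p = 0.0186) and Hexa (-0.19 ± 0.065, adjusted p = 0.0258) also fell. The calls of these 5 genes were each lost without 1 of several libraries. For Tfeb these were starved Lap2-depleted replicate 1 and stimulated Lap2-depleted replicates 2 and 3 (-0.35 to -0.26). For Gla they were starved Lap2-depleted replicate 3 and stimulated Lap2-depleted replicates 1 and 2 (-0.24 to -0.20). For Tpp1 they were starved Lap2-depleted replicate 2 and stimulated Lap2-depleted replicates 1 and 2 (-0.19 to -0.15). For Mcoln1 they were starved Lap2-depleted replicate 2 and stimulated Lap2-depleted replicate 1 (-0.23 to -0.17), and for Hexa stimulated Lap2-depleted replicates 1 and 2 (-0.18 to -0.16).

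**Figure D4:**
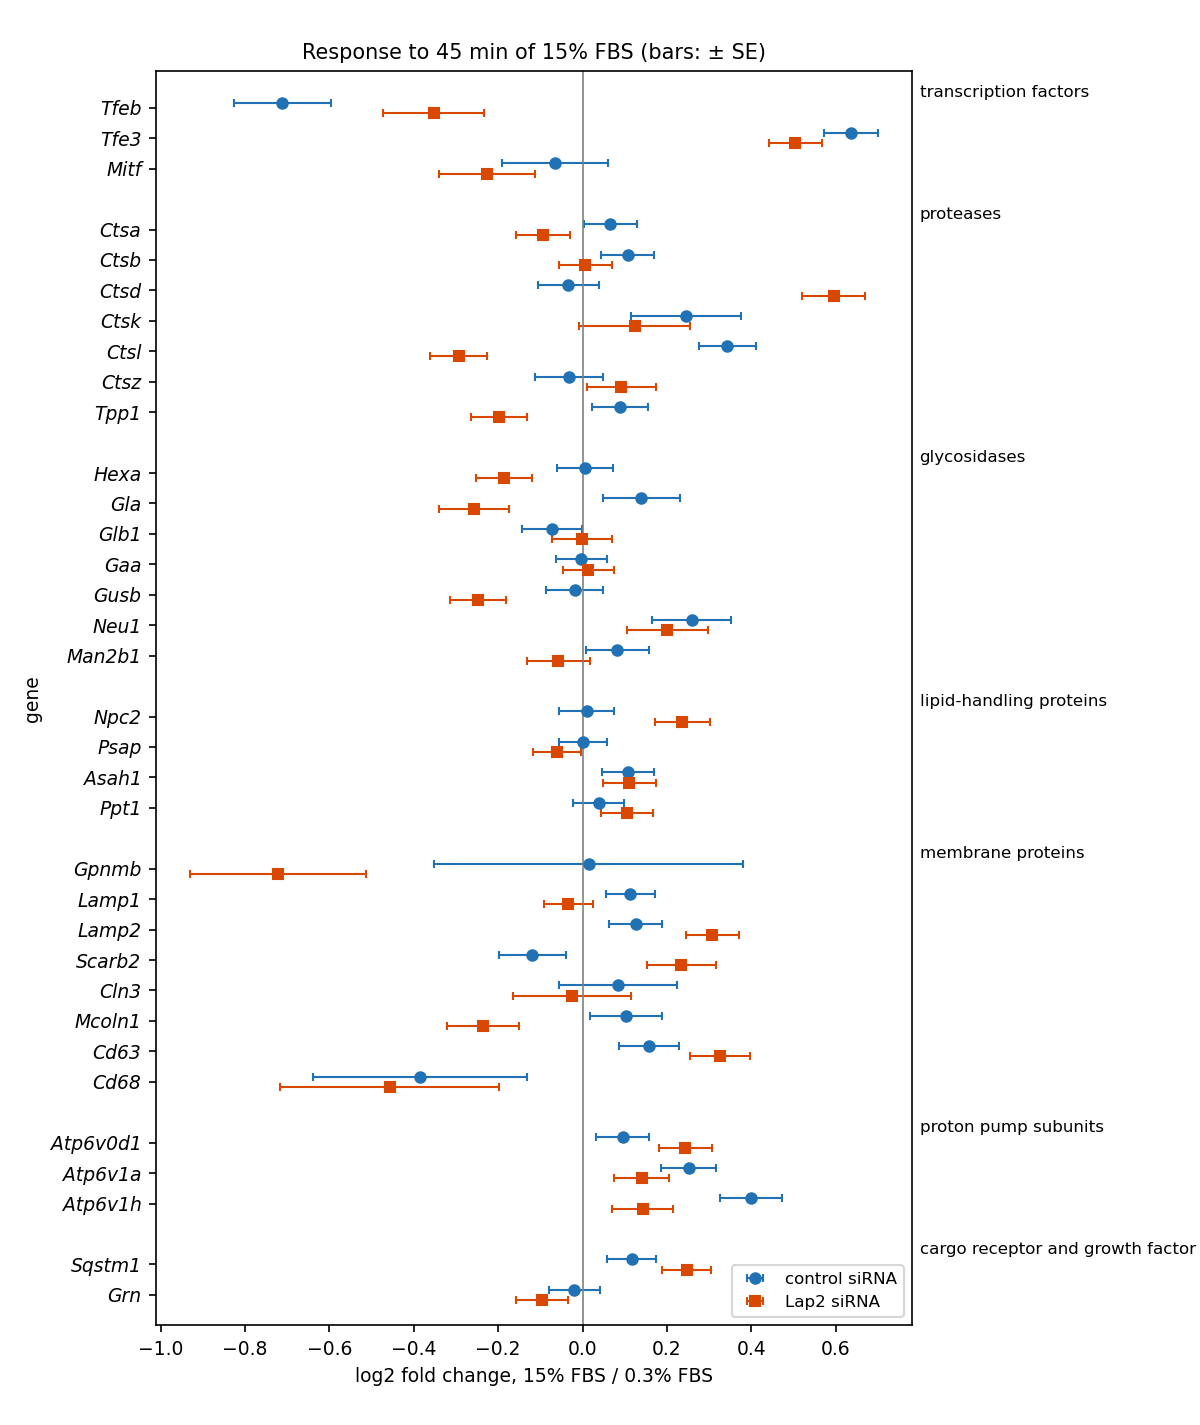
Log2 fold change of 15% FBS over 0.3% FBS (x axis) for 34 members grouped by role (y axis), with control siRNA (circles) and Lap2 siRNA (squares) and bars of ± SE; Ctss is not drawn. Tfe3 lies to the right and Tfeb to the left with both siRNAs, whereas Ctsd is at -0.03 and 0.59 and Ctsl at 0.34 and -0.29.

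The third question was whether the serum response differed between Lap2-depleted and control cells. The difference of the log2FCs, tested as an interaction, was past the threshold in the higher direction for 2 members and in the lower for 3, out of 35, against 7.09% and 6.51% of all tested genes. Scaling to total counts gave 1 and 4, upper-quartile normalization 2 and 4 and DESeq2 2 and 5. Over all tested genes these settings gave 1160 and 1341, 1215 and 1316, and 1241 and 1462, against 1324 and 1216 in the main fit. The members' counts ran from 1 to 3 higher and from 1 to 5 lower when each library was left out in turn. Those of all tested genes ran from 906 to 1556 higher and from 935 to 1975 lower. There were 1 and 1 members without starved control replicate 2 or stimulated Lap2-depleted replicate 1 or 2. All tested genes numbered 1004 and 978, 956 and 935, and 1026 and 974 in these fits. There was 1 member higher without starved control replicate 3, stimulated control replicate 1 or starved Lap2-depleted replicate 3, and 1 lower without stimulated control replicate 2 or 3. Here all tested genes numbered 906, 1089 and 1050 higher, and 1043 and 1086 lower. Without starved Lap2-depleted replicate 2 there were 2 members lower, and without starved Lap2-depleted replicate 1 or stimulated Lap2-depleted replicate 3 there were 5. These fits had 1168, 1975 and 1273 of all tested genes lower. The protease genes Ctsd and Ctsl had the largest differences past the threshold, in opposite directions. Ctsd did not pass in control cells (-0.03 ± 0.073) and rose in Lap2-depleted cells, a difference of 0.63 ± 0.10 (adjusted p = 3.93e-05). Ctsl rose in control cells and fell in Lap2-depleted cells, a difference of -0.64 ± 0.096 (adjusted p = 1e-05). Both differences held in every alternative. In counts, the gap between control and Lap2-depleted cells was wide in 0.3% FBS for both genes and narrower or gone in 15% FBS.

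Gla (-0.40 ± 0.12, adjusted p = 0.0278), Tpp1 (-0.29 ± 0.094, adjusted p = 0.0363) and Scarb2 (0.35 ± 0.11, adjusted p = 0.0331) were closer to the threshold. Gla was lost without starved control replicate 1 or 2, stimulated control replicate 2 or 3, starved Lap2-depleted replicate 3 or stimulated Lap2-depleted replicate 1 or 2 (-0.40 to -0.34). Tpp1 was lost without starved control replicate 2, stimulated control replicate 2 or 3, starved Lap2-depleted replicate 2 or stimulated Lap2-depleted replicate 1 or 2 (-0.29 to -0.25). Scarb2 was lost without any 1 of 8 libraries, all but starved control replicate 1, stimulated control replicate 2, starved Lap2-depleted replicate 2 and stimulated Lap2-depleted replicate 3 (0.23 to 0.35), and with scaling to total counts (0.33, adjusted p = 0.0503). Mcoln1 did not pass (-0.34 ± 0.12, adjusted p = 0.0573) but did with DESeq2 (-0.37, adjusted p = 0.0309), with scaling to total counts, upper-quartile normalization, another or no filter on low counts (-0.36 to -0.34, adjusted p = 0.0391 to 0.0463) and without starved control replicate 1, stimulated control replicate 1, starved Lap2-depleted replicate 1 or 3 or stimulated Lap2-depleted replicate 3 (-0.44 to -0.38). The responses of Tfe3 (95% interval of the difference, not adjusted for the number of genes, -0.31 to 0.04, adjusted p = 0.393) and Tfeb (0.03 to 0.68, adjusted p = 0.17) were not shown to differ. For Gpnmb the difference was -0.74 ± 0.42, given without a p because it is made of the contrasts on which the list was chosen.

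The other genes of the pathway were read from 6 lists with 113 genes, of which 108 were tested. In starved cells, 39 of these were past the threshold higher and 25 lower with Lap2 siRNA, and in 15% FBS 26 and 14, or 53 and 22 and 38 and 12 with scaling to total counts. Of all tested genes, as given above, 17.8% and 18.6% were past it in 0.3% FBS and 11.4% and 12.1% in 15% FBS in the main fit. The lower counts of the lists in that fit were near this background. With scaling to total counts, 4689 of the 18668 tested genes were higher and 2638 lower in 0.3% FBS. In 15% FBS that scaling had 3471 higher and 1678 lower. The further hydrolases leaned lower in 0.3% FBS, with 12 of 26 lower and 5 higher (median log2FC -0.23), and the further proton pump subunits higher, with 8 of 15 higher and 0 lower (median 0.24). With scaling to total counts these were 11 lower and 7 higher (median -0.12) and 11 higher and 0 lower (median 0.34), and the other normalizations changed neither count. Among the members in 0.3% FBS, 4 of 8 proteases were higher and 1 lower, and 3 of 7 glycosidases higher and 1 lower. Of the 4 lipid-handling members, 1 was higher and 2 lower. The lower lean is thus stated for the further hydrolases only. Lipa, the acid lipase that frees cholesterol from esters, was at 2071, 2467 and 2414 normalized counts in starved control cells and 883, 892 and 940.4 in starved Lap2-depleted cells (log2FC -1.36 ± 0.08). Pla2g15, a phospholipase, was at -0.94 ± 0.094 and Igf2r, the large mannose 6-phosphate receptor that brings hydrolases to lysosomes, at -1.09 ± 0.073. Tcirg1, the a3 subunit of the pump, was at 0.74 ± 0.077, Atp6v1b2 at 0.61 ± 0.07 and Clcn7, a chloride-proton exchanger, at 0.53 ± 0.069. Of genes that regulate the factors, Fnip2, a partner of folliculin, was at 0.90 ± 0.10 and Tsc1, an inhibitor of mTORC1, at -0.55 ± 0.084. In 15% FBS the autophagy genes were 9 of 24 higher and 2 lower, with Gabarapl1, an Atg8-family protein, at 0.79 ± 0.066 and Atg12 at 0.71 ± 0.073. In the same condition Pip4p1, a phosphoinositide phosphatase, was at -0.99 ± 0.088. These lists, like the members, were drawn up with earlier results of these data known.

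With serum, 17 of the 108 genes rose and 20 fell in control cells, and 25 and 21 in Lap2-depleted cells, against 15.6% and 13.9%, and 18.3% and 14.9%, of all tested genes, so these counts were near the background. Scaling to total counts made these 6 and 60, and 5 and 63, and upper-quartile normalization 11 and 34, and 10 and 39. Of all 18668 tested genes, scaling to total counts had 1632 rise and 5847 fall in control cells, and 1658 and 5949 in Lap2-depleted cells. Upper-quartile normalization had 2183 and 3878, and 2383 and 3942. With these 2 scalings the listed genes fell more often than all tested genes, so nearness to the background depended on the scaling. The further proton pump subunits rose most often in control cells, 9 of 15 with 1 lower, but 2 of 15 with 2 lower with scaling to total counts and 5 with 1 lower with upper-quartile normalization. They were led by Atp6v0a1 (0.76 ± 0.074, adjusted p = 3.01e-10). Rheb, the GTPase that activates mTORC1, rose from 1517, 1435 and 1553 to 4785, 4579 and 4579 normalized counts in control cells (1.63 ± 0.064, adjusted p = 1.5e-20) and by 1.03 ± 0.063 in Lap2-depleted cells (adjusted p = 4.25e-15), and the difference was -0.60 ± 0.089 (adjusted p = 8.12e-06). Atg14, a subunit of the autophagy lipid kinase, fell with both siRNAs (-1.56 ± 0.12 and -1.40 ± 0.12, adjusted p = 2.06e-12 and 1.81e-11), and Map1lc3a, an Atg8-family protein, rose with both (0.74 ± 0.076 and 1.04 ± 0.078, adjusted p = 8.55e-10 and 6.26e-13). Of the 108, 7 had a higher and 11 a lower response in Lap2-depleted cells than in control cells, against 7.09% and 6.51% of all tested genes. Lipa (0.68 ± 0.11, adjusted p = 3.77e-05), Gm2a, the activator of hexosaminidase A (0.66 ± 0.14, adjusted p = 0.00101), and the sorting receptor Sort1 (0.92 ± 0.12, adjusted p = 5.53e-07) also had a higher response in Lap2-depleted cells.

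**Figure D5:**
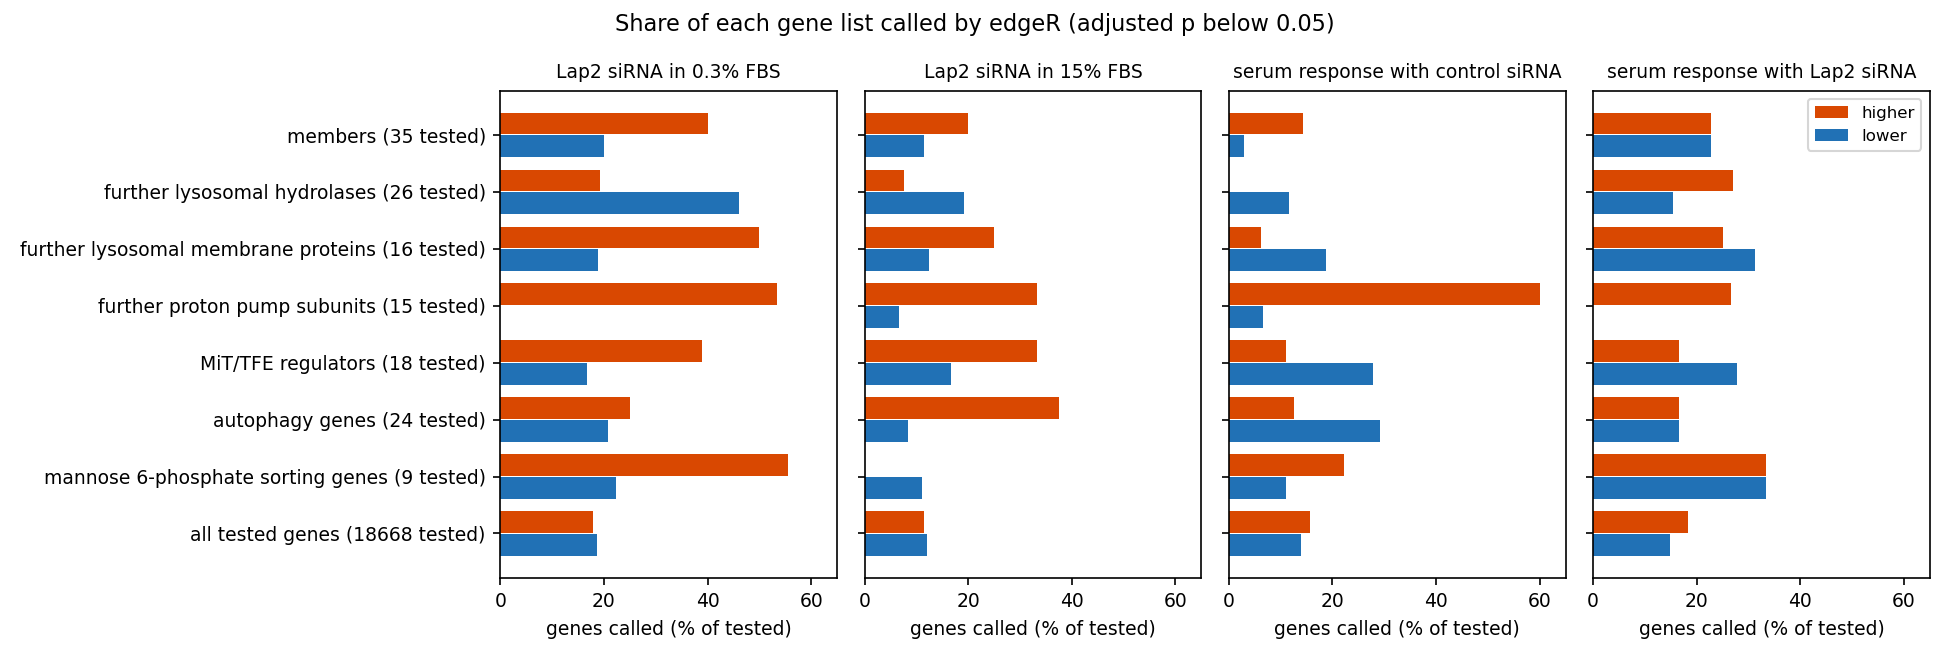
Percent of the tested genes of each list (bars, from 0) that edgeR called higher or lower in 4 comparisons; the members, 6 further pathway lists and all 18668 tested genes are shown. The bars for all tested genes are the background. For Lap2 siRNA in 0.3% FBS the further hydrolases lean lower, while the further proton pump subunits hold higher calls only.

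Some counts could hold reads of other genes. The library kit keeps the strand, but the strand setting of the counting was not given in the sources used here, and Ctsa, Ctsb, Ctsz, Hexa, Ppt1, Lamp1, Cln3, Sqstm1, Atp6v1h, Grn, Mitf and Scarb2 overlap a gene on the other strand. Ctsd shares 671 identical bases with Gm49369 at the same locus and Glb1 shares 165 with Tmppe, where reads cannot be given to 1 gene alone. Cd63 matched the pseudogene Cd63-ps over 858 bases at 98.0% identity and Ctsl matched Gm49230 over 395 bases with no mismatch. Values of Ctsd, Ctsl, Cd63 and Glb1 are uncertain to that extent.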

How the data were processed

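RNA-seq of ribosome-depleted total RNA from NIH 3T3 cells gave 12 libraries. Per the labels and the study's methods, the authors aligned reads to mm10 with TopHat2 and counted them per gene with HTSeq (versions and annotation not given in the sources used here), and the deposited values are raw counts for 49671 genes. Groups came from the labels and the 45 min from the series description. Symbols, positions and exon lengths were taken from GENCODE M21.

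Here, the 18668 genes with more than 1 read in 3 or more libraries were tested with edgeR 4.0.16 in R 4.3.3 (TMM, 4 group means, quasi-likelihood F-test, Benjamini-Hochberg over all tested genes, threshold 0.05). Values after ± are SE for a log2FC and SD for a level. To give normalized counts, each library was scaled by its effective (TMM) size to the mean effective size, and levels per length divide by kb of merged exons. The study's methods name DESeq and the submitters' processing notes DESeq2. DESeq2 1.42.0 was run as an alternative beside other scalings, filters, fits of 2 groups, a replicate block and each library left out. The further lists were also counted under the other scalings and DESeq2, a choice made after seeing the data. Depth is 18026298 to 26265253 counts, and with 3 libraries a group the precision rests mainly on their spread. Intervals of a log2FC are 95% intervals of the fit, and the limit beside a count of 0 (3 counts) covers counting error only. Motifs were searched with Python 3.11.15 in RefSeq windows, and shared transcript stretches (100 bases, 95% identity) with BLAST+ 2.17.0.

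The members and lists were chosen with earlier results of these data known. All members are named. From the other lists, up to 2 genes per list and contrast were eligible, those with the largest absolute log2FC past the threshold whose groups were apart and whose mean reached 100 normalized counts, and marker genes are given as levels. Protein sequences were not used here.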

Additional observations from a re-analysis of the deposited data

Results flagged for a closer look

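Of the 35 tested members, 5 had a serum response that differed between Lap2-depleted and control cells by the interaction test (edgeR, Benjamini-Hochberg over 18668 genes), and this is why they are listed. The response was higher for 2 (5.71% of members) and lower for 3 (8.57%), against 7.09% and 6.51% of all tested genes. Their number was thus near the background. For Ctsd the response was 0.63 higher on the log2 scale with Lap2 siRNA. For Ctsl the difference was -0.64, for Gla -0.40 and for Tpp1 -0.29. For Scarb2 it was 0.35. Ctsd and Ctsl kept the call in all alternatives, including each library left out. Gla, Tpp1 and Scarb2 lost it without 7, 6 and 8 of the 12 libraries taken out in turn, with an adjusted p of up to 0.102, 0.110 and 0.122. Scarb2 also lost it with scaling to total counts (0.33, adjusted p = 0.0503). Groups of 3 libraries were not tested for outlying samples.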

How the results depend on the processing

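With scaling to total counts, 2 members rose and 12 fell with serum in control cells (median log2FC -0.1252) and 2 and 18 in Lap2-depleted cells (median -0.2324). In control cells Hexa (-0.2022), Npc2 (-0.198), Psap (-0.2057) and Ppt1 (-0.1696) were past the threshold below 0, though above 0 in the main fit. The same held for Ctsb (-0.2243) and Gaa (-0.2175) in Lap2-depleted cells. Other members also moved from above 0 to below it without passing the threshold. This scaling puts the median of all tested genes at -0.21 and -0.23. It had 1632 of all tested genes rise and 5847 fall in control cells, and 1658 and 5949 in Lap2-depleted cells. The difference between the responses was then higher for 1 member and for 1160 of all tested genes. With Lap2 siRNA the members' median was 0.1801 in 0.3% FBS and 0.1016 in 15% FBS, where 11 members were higher and 2 lower. In 15% FBS 3471 of all tested genes were higher and 1678 lower. Upper-quartile normalization gave 3 members higher and 2 lower in control cells (median -0.013) and 4 higher in Lap2-depleted cells (median -0.1125). It had 2183 of all tested genes higher and 3878 lower in control cells, and 2383 higher in Lap2-depleted cells. DESeq2 gave a lower response for 5 members and for 1462 of all tested genes. The cause of these shifts was not tested.

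When each library was left out in turn, 4 to 9 members rose with serum in control cells (median 0.0118 to 0.0951), and 3 to 9 fell in Lap2-depleted cells (median -0.0484 to 0.0145). Of all tested genes, 2507 to 3477 rose in control cells and 2276 to 3058 fell in Lap2-depleted cells. The difference was higher for 1 to 3 members and lower for 1 to 5 (median -0.1402 to -0.0446). It was higher for 906 to 1556 and lower for 935 to 1975 of all tested genes. With Lap2 siRNA the median was 0.0462 to 0.1278 in 0.3% FBS, and in 15% FBS 4 to 9 were higher and 2 to 5 lower (median -0.042 to 0.0472). In 15% FBS 1542 to 2428 of all tested genes were higher and 1897 to 2744 lower.

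Samples with the same replicate number did not deviate together, with correlations of -0.095 to 0.065 in 18 pairs over 11267 genes. Whether they shared a culture or a day is not stated, and these correlations cannot decide it. With the replicate as a block, 5 and 1 members rose and fell in control cells and 8 and 8 in Lap2-depleted cells. The difference kept counts of 2 and 3, and Lap2 siRNA gave 14 and 7 in 0.3% FBS and 6 and 4 in 15% FBS.

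Of the calls, 3 of 6 in control cells, 4 of 16 in Lap2-depleted cells and 2 of 5 of the difference held in every alternative run. At these depths Ctss and Atp6v0d2 could not be compared, and 3 libraries a group from 1 siRNA and 1 cell line limit every comparison.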
